A study of Homo sapiens with 8 samples.

Results

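The clustered histone genes were followed through 5-aza-dC treatment in control and TET1 knockdown clones of a colorectal cancer line from human, HCT116. Members were the gene probes whose gene name on the array began with HIST1H, HIST2H or HIST3H, together with H1F0, a rule that used no measured value. This gave 70 genes of the 36337 gene names on the array, carried by 84 of 50599 probes. By class there were 7 genes of H1, 17 of H2A, 19 of H2B, 13 of H3 and 14 of H4. The pseudogenes HIST1H2APS1 and HIST2H2BA were counted in H2A and H2B. CONT1 and CONT2 were 2 control clones that carried a negative control miRNA plasmid. TET1-KD1 and TET1-KD2 were 2 TET1 knockdown clones that carried vectors for different miRNAs against TET1, so the knockdown lines differ in their vector as well as in their clone. All 4 clones had been selected with G418, and each was hybridized once untreated and once after 1 μM 5-aza-dC for 72 h, which gave 8 arrays and 2 clones per condition. Conditions followed the sample titles, because another label field gave mock for every control array and 5-aza-dC for every knockdown array.

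The core histones H2A, H2B, H3 and H4 form the octamer around which DNA is wound, and H1 binds the linker between nucleosomes. Most of their genes sit in clusters on chromosomes 6 and 1 and are transcribed in S phase, when new DNA has to be packed. Their mRNAs end in a conserved stem-loop bound by SLBP, and not in a poly(A) tail. Some clustered genes also give longer polyadenylated transcripts, and H1F0, the gene of histone H1.0, is expressed outside S phase. 5-aza-dC is a cytidine analog that is built into DNA and traps DNA methyltransferases, and TET1 oxidizes 5-methylcytosine. The labeling kit primes cDNA on poly(A), so the signal of a histone probe need not follow the amount of stem-loop mRNA.

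The stem-loop was found in the 60 bases of 4 member probes, which places those probes at the end of the replication-dependent transcript. They are shown because they mark where that form of mRNA ends. A longer polyadenylated transcript of the same gene can hold these bases too, so the signal of these probes need not come from the stem-loop mRNA. Each line is read 5′ to 3′ from the probe, with the stem-loop in capitals.
HIST1H2AI: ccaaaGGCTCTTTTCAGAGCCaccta
HIST1H2BE: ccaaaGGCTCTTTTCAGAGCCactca
HIST1H3H: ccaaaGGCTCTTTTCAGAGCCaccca
HIST2H3A: caaaaGGCTCTTTTCAGAGCCacc
None of the 4 was called higher in either kind of clone. The HIST1H2AI probe fell in both, the HIST2H3A probe fell in the TET1-KD clones, and the HIST1H2BE probe and this HIST1H3H probe did not pass the test.

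RefSeq promoters (GRCh38.p14) matched 62 of the 70 genes, and H1F0, HIST1H2AH, HIST1H2APS1, HIST1H3I, HIST1H3J, HIST1H4A, HIST1H4C and HIST2H2BA were not matched. The 250 bases upstream of 5 starts are shown, since these genes carry the main contrasts of the data. HIST1H1A (chr6:26017788-26018037, minus strand) and HIST1H2AL (chr6:27865067-27865316, plus strand) rose from background. HIST1H2AJ (chr6:27814778-27815027, minus strand) fell while the H2B gene on the other side of its promoter rose. HIST1H2BK (chr6:27146859-27147108, minus strand) had the smallest p-value of the H2B genes in control clones, at a probe downstream of the gene body, and HIST1H4B (chr6:26027284-26027533, minus strand) had the largest fall in control clones. Capitals mark, on either strand, the TATA box letters TATAAA. They also mark the CCAAT box and the octamer ATTTGCAT, and the motifs may share end letters.
HIST1H1A: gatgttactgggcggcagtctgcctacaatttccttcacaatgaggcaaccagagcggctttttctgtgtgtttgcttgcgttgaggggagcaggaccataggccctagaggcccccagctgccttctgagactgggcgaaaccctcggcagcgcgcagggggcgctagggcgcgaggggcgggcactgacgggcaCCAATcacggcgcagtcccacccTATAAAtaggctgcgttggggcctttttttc
HIST1H2AL: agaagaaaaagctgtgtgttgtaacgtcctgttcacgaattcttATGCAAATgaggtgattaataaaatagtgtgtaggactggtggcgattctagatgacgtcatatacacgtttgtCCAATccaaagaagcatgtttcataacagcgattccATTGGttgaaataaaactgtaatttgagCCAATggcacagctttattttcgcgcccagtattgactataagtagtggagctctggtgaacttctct
HIST1H2AJ: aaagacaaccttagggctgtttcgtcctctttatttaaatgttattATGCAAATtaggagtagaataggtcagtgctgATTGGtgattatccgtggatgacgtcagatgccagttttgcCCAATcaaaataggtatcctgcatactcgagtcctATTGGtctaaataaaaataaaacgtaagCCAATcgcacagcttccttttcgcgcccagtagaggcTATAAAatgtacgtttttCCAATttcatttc
HIST1H2BK: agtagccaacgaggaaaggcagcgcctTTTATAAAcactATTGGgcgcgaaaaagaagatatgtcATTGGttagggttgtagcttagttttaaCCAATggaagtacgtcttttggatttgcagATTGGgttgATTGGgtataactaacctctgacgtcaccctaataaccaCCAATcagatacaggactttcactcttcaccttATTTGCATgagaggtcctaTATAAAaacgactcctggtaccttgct
HIST1H4B: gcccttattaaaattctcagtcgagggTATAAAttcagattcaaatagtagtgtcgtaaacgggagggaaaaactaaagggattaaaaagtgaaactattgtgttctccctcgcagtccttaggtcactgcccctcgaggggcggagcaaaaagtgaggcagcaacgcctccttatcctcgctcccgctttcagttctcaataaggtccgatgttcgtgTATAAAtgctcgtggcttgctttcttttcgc
The octamer stood in 14 of 18 H2B and 11 of 15 H2A promoters, in 1 of 11 H3 promoters, and in none of the H1 and H4 promoters. The H3 case, HIST1H3D, is the same stretch as that of HIST1H2AD and so is counted under both classes. Over all members it stood in 41.9% of the stretches, against 1.63% of 35116 promoters. CCAAT was present in every H1, H2A, H2B and H3 stretch and in 3 of 12 H4 stretches, and in 32.0% of all promoters. TATAAA was present in 64.5% of the member stretches and 10.72% of all promoters. The stretches held 3 to 22 CpG sites with a median of 9, against a median of 11 over all promoters, and the H4 median was 13. HIST1H1A had 15 CpG sites, HIST1H2AL 8 and HIST1H4B 13. Many H2A and H2B stretches are the same DNA read from opposite ends, so these shares are not independent.

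Of the 84 probes, 76 were bright enough to be tested, which required signal above background in both clones of some condition. Signal was above background on all 8 arrays for 68 probes and on none for 5. The 8 untested probes were those of HIST1H1T, HIST1H2APS1, HIST1H2BA, HIST1H4G and HIST2H4A, both of HIST2H2BA, and 1 of the 4 of HIST2H2BF. Values are log2 normalized signals, and calls are adjusted p-values below 0.05 in a limma fit over all 27287 tested probes. In the control clones 21 of 76 member probes rose with 5-aza-dC (27.6%, against 19.2% of all tested probes) and 33 fell (43.4%, against 22.6%). In TET1-KD cells 12 rose (15.8%, against 8.91%) and 31 fell (40.8%, against 2.9%). The share of histone probes that fell was thus far above that of all probes in TET1-KD cells, while both shares were high in control cells. Of the probes called, 11 rose and 28 fell in both kinds of clone, and none was called in opposite directions. Shared and opposite calls were not counted over all tested probes, so no background share stands beside these counts. The median response over all 84 probes was -0.25 in CONT1 and -0.45 in CONT2, and in the knockdown lines it was -0.37 (TET1-KD1) and -0.35 (TET1-KD2). Over all 50543 probes with a value the medians were 0.20, 0.36, -0.16 and -0.25 in the same order. Over the 27287 tested probes alone they were -0.08, -0.08, -0.06 and -0.07. The histone median lay below that of the tested probes in every clone. Its distance from the median of all probes, which include the untested dim ones, varied more between clones.

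The classes moved apart. Most H4 and H3 probes fell in both kinds of clone, most H1 and H2B probes rose in the control clones, and H2A went both ways. In the control clones 13 of 16 H4 probes and 9 of 14 H3 probes fell, while 12 of 21 H2B probes and 4 of 6 H1 probes rose. The falls were 81.25% and 64.3%, against 22.6% of all tested probes, and the rises 57.1% and 66.7%, against 19.2%. The median change was -1.32 for H4, -1.27 for H3, -0.92 for H2A, 0.92 for H2B and 1.96 for H1. Likewise 13 H4 and 8 H3 probes fell in the TET1-KD clones, while 6 of 21 H2B and 2 of 6 H1 probes rose. The falls were 81.25% and 57.1%, against 2.9% of all tested probes, and the rises 28.6% and 33.3%, against 8.91%. The medians there were -1.27, -0.90, -0.68, 0.88 and 1.67 in the same order. Not 1 of the 16 tested H4 probes had a positive change in either kind of clone.

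**Figure D1:**
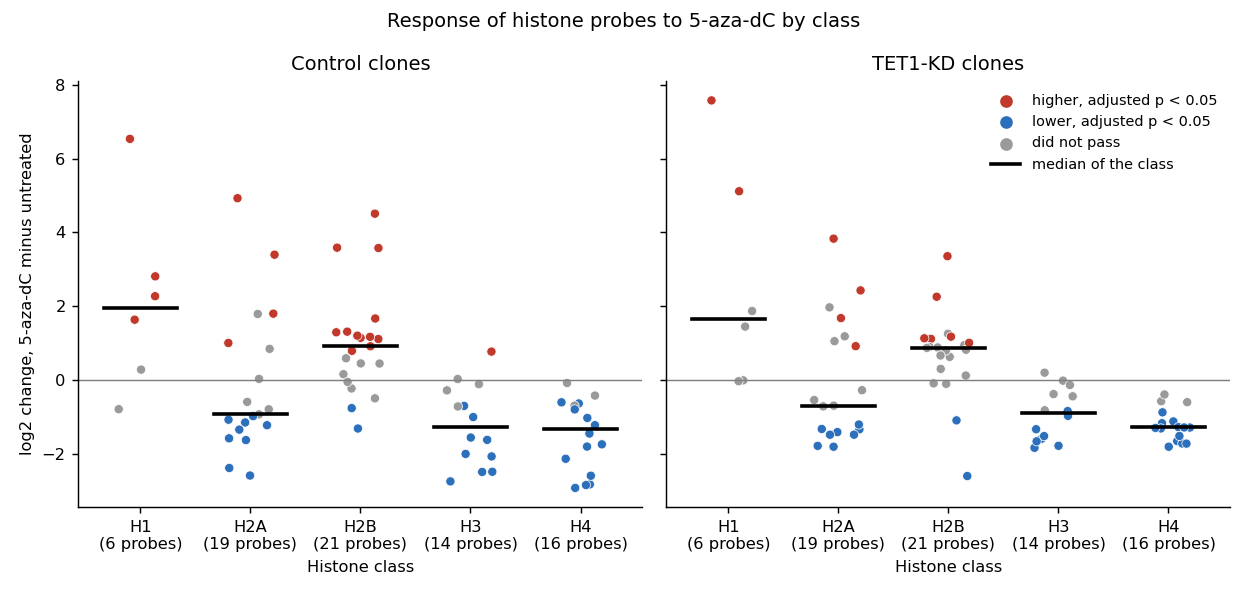
Change of each tested histone probe with 5-aza-dC (vertical axis, log2 units) by class (horizontal axis), in control clones (left) and TET1-KD clones (right), each the mean of 2 clones. Points are probes, red where called higher, blue where called lower, grey where the test was not passed, and bars are class medians. All 16 H4 probes lie below 0 in both panels, and the H2B medians are 0.92 and 0.88.

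The count of rises depended on single arrays. Calls over all tested probes were not counted in the fits of this paragraph, so their background shares are not known. Without the treated TET1-KD2 array 4 histone probes rose in the TET1-KD clones, without the treated TET1-KD1 array 23 did, and without any 1 of the other 6 arrays 6 or 7 did. H2B accounted for most of this, with 1 and 13 probes called. In the control clones 9 probes rose without either untreated control array and 8 without the treated CONT2 array. Falls ranged from 23 to 36 in the control clones with any 1 array left out. They ranged from 15, without the untreated TET1-KD2 array, to 29 in TET1-KD clones. The 2 treated control arrays were on another slide, scanned 230 days after the slide with the other 6, so slide and treatment cannot be told apart in the control clones. Both TET1-KD conditions were on the first slide, and with its 6 arrays alone 7 histone probes rose and 29 fell.

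Among the H1 genes, HIST1H1A showed the largest change of any member. Its product H1.1 is a linker histone found in few tissues. Its probe (hg19 chr6:26017351-26017410) read 3.53 in CONT1 and 2.71 in CONT2 before treatment, with 2.98 for TET1-KD1 and 2.33 for TET1-KD2, and was not well above background on any of these arrays. After 5-aza-dC it read 10.22, 9.09, 10.35 and 10.11. All 4 treated arrays were above background and far above the untreated ones. The rise was at least 40.4-fold in the control clones (adjusted p = 0.000244, limma) and at least 56.7-fold in the TET1-KD clones (adjusted p = 0.000214). These bounds set the treated mean against the lowest signal that was well above background on the untreated arrays.

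HIST1H1B, which encodes H1.5, also came up from background. It read 4.44, 1.94, 1.96 and 2.34 in untreated CONT1, CONT2, TET1-KD1 and TET1-KD2, and 6.12, 5.89, 7.12 and 7.41 after treatment. The groups did not overlap. The rise was at least 3.17-fold in control clones (adjusted p = 0.0245, limma) and at least 7.30-fold in TET1-KD clones (adjusted p = 0.00746). These calls were lost without either treated control array (0.0807 and 0.0963) and without the treated TET1-KD2 array (0.0522). HIST1H1C encodes H1.2, an abundant linker histone. It went from 13.28 and 13.29 to 15.42 and 15.70 in the control clones, a log2 change of 2.28 ± 0.47 (SE, n = 2 clones, limma adjusted p = 0.0112). In TET1-KD1 it read 13.39 before and 14.41 after, and in TET1-KD2 13.25 and 15.99. The treated TET1-KD arrays were thus both above the untreated ones but far from each other, and the change of 1.88 did not pass the test (limma adjusted p = 0.0542). It did pass after normexp background correction, after quantile normalization, with an offset of 50 added before the log, after removal of the trend on probe GC content or with a variance prior that follows the signal (0.025 to 0.0463), and without either treated TET1-KD array (0.00163 and 0.0446). The control call of HIST1H1C was lost without either untreated control array or the treated CONT2 array (0.0544 to 0.0574).

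HIST1H1D, the gene of H1.3, rose in the control clones by 1.64 ± 0.47 (limma adjusted p = 0.0335), and with the clone as a block the adjusted p was 0.0577. Without any 1 of the 4 control arrays this call was lost (0.0936 to 0.126). Its change in the TET1-KD clones was 1.45 (limma adjusted p = 0.105). HIST1H1E, the gene of H1.4, gave -0.78 in the control clones (limma adjusted p = 0.1), and 0.0425 with the clone as a block, against -0.02 in the TET1-KD clones. H1F0 read 13.22 to 14.19 untreated and 13.54 to 14.18 treated over the 4 clones, and these ranges overlapped. Its change was 0.29 ± 0.36 in the control clones and 0.00 ± 0.36 in the TET1-KD clones (SE, n = 2 clones each). HIST1H1T, the testis linker histone, was above background on 1 array and was not tested.

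**Figure D2:**
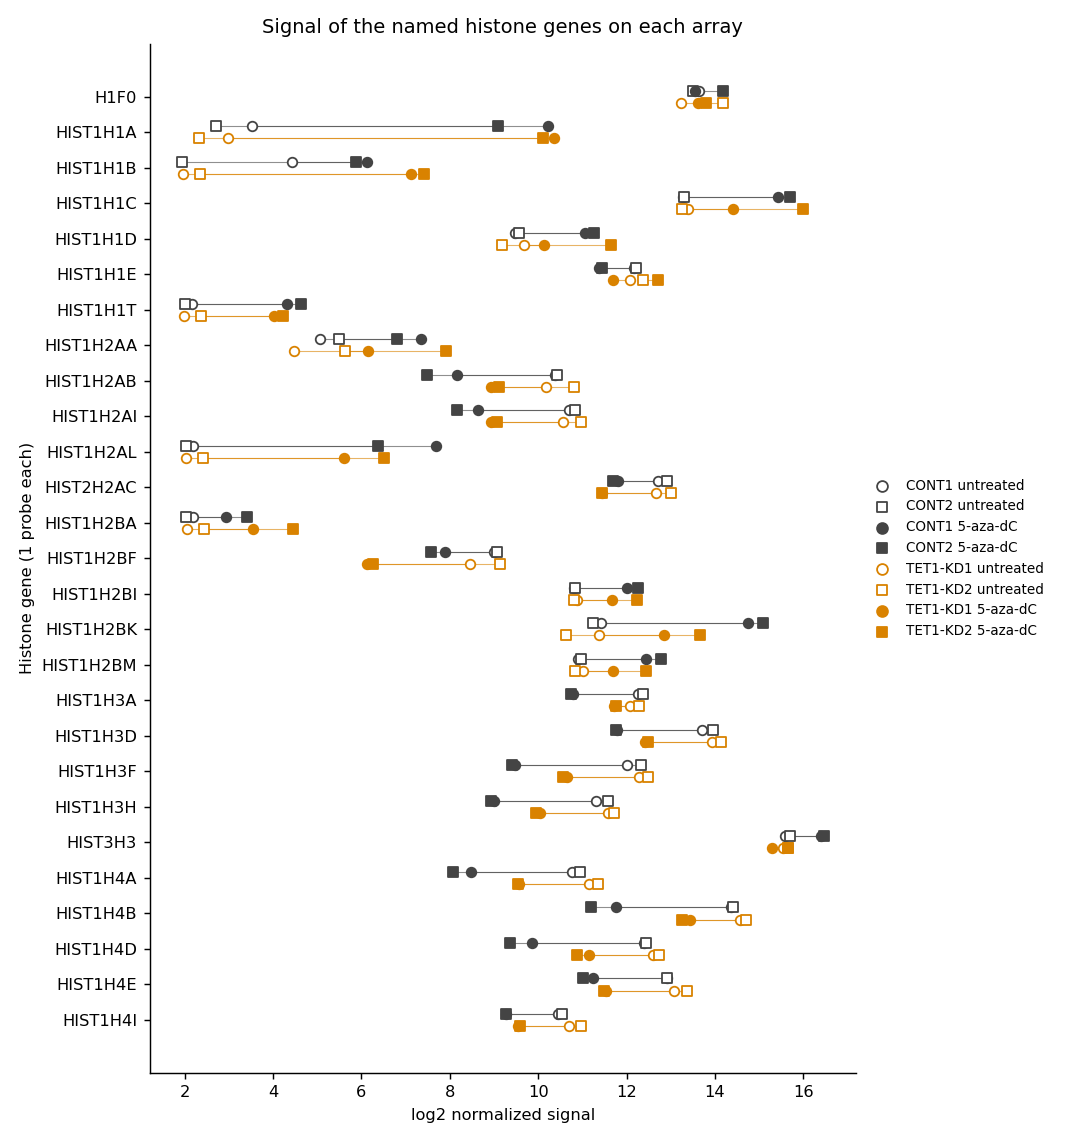
Log2 normalized signal (horizontal axis) of the named histone genes (vertical axis, 1 probe each) on the 8 arrays. Grey marks control clones and orange TET1-KD clones, circles clone 1 and squares clone 2, open symbols untreated and filled symbols 5-aza-dC arrays. HIST1H1A moves from between 2.33 and 3.53 to between 9.09 and 10.35, while the filled symbols of HIST1H4B lie left of all its open ones.

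In the H2A class 4 probes rose and 9 fell of 19 in the control clones, and 4 rose and 8 fell in the TET1-KD clones. The control shares were 21.1% and 47.4%, against 19.2% and 22.6% of all tested probes, so the rises there were near background. The TET1-KD shares were 21.1% and 42.1%, against 8.91% and 2.9%. HIST1H2AL had among the smallest p-values of the class in both. Its probe (hg19 chr6:27833502-27833561) read 2.02 to 2.42 on the 4 untreated arrays, none above background. After treatment the control clones read 7.69 and 6.38 and the knockdown clones 5.61 and 6.51. The rise was at least 6.59-fold in control clones (adjusted p = 0.000755, limma) and at least 3.16-fold in TET1-KD clones (adjusted p = 0.00428), where it did not pass after normexp or with the offset of 50 (0.0555 and 0.0575). HIST2H2AA4 rose as well, from 7.91 and 8.30 to 11.53 and 11.48 in the control clones and from 8.58 and 7.95 to 9.78 and 11.61 in the TET1-KD clones, which was 10.5-fold and 5.40-fold.

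The other H2A genes with the smallest p-values went down. HIST1H2AI read 10.69 and 10.84 in untreated control clones and 8.64 and 8.15 after treatment, a fall of 2.37 ± 0.23 (SE, limma adjusted p = 0.000723). In the TET1-KD clones it went from 10.56 and 10.97 to 8.93 and 9.06, a fall of 1.77 ± 0.23 (limma adjusted p = 0.00479). HIST1H2AB fell by 2.57 in control clones and by 1.47 in TET1-KD clones, where the call was lost without either untreated control array, either treated TET1-KD array or the untreated TET1-KD2 array (limma adjusted p = 0.0592 to 0.106). HIST2H2AC, in the chromosome 1 cluster, fell by 1.06 in control clones and by 1.40 in TET1-KD clones (limma adjusted p = 0.00478 and 0.00404).

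In the H2B class 12 probes rose and 2 fell of 21 in the control clones (57.1% and 9.52%, against 19.2% and 22.6% of all tested probes). HIST1H2BK had the largest change of the brightest probes, from 11.43 and 11.25 to 14.74 and 15.09 in CONT1 and CONT2. This was a rise of 3.58 ± 0.36 (SE, n = 2, limma adjusted p = 0.000821). In the TET1-KD clones it went from 11.37 and 10.62 to 12.85 and 13.67, a rise of 2.26 ± 0.36 (limma adjusted p = 0.0111). HIST1H2BM rose by 1.67 in control clones (limma adjusted p = 0.00459) and by 1.14 in TET1-KD clones (limma adjusted p = 0.0457, and 0.0616 with the clone as a block). HIST1H2BI rose by 1.32 and 1.12 (limma adjusted p = 0.00523 and 0.0249). The TET1-KD call of HIST1H2BI was lost without the filter on dim probes (0.0568), with the 4 arrays of the comparison alone (0.113), and without any 1 of the 4 untreated arrays or the treated TET1-KD2 array (0.0578 to 0.0996). That of HIST1H2BM was lost without any 1 array other than the treated TET1-KD1 array (0.0708 to 0.155), and that of HIST1H2BK without either TET1-KD2 array (0.0514 and 0.0522).

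HIST1H2BF and HIST3H2BB were the H2B genes that fell. HIST1H2BF read 9.0, 9.08, 8.45 and 9.12 in untreated CONT1, CONT2, TET1-KD1 and TET1-KD2, and 7.90, 7.57, 6.14 and 6.26 after treatment. The groups did not overlap, and the treated TET1-KD clones were lowest. The fall was 1.30 in control clones (not passed without the untreated CONT2 array, limma adjusted p = 0.052) and 2.59 in TET1-KD clones, and the difference between them did not pass the test (limma adjusted p = 0.0934). The HIST1H2BI probe matched one of HIST2H2BF at 51 of 60 bases, so part of their signal may come from the same transcripts. The HIST1H2BD probe matched the second HIST1H2BK probe as closely, while the HIST1H2BK probe described here matched no probe of another member at more than 24 bases. Probes were not compared with whole transcripts.

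Among H3 genes, HIST1H3F, HIST1H3H and HIST1H3D, all copies of the replication-dependent H3 gene, had the smallest p-values in both kinds of clone. HIST1H3F read 12.01 and 12.33 in untreated control clones and 9.47 and 9.40 after treatment. In TET1-KD1 and TET1-KD2 it went from 12.27 and 12.49 to 10.65 and 10.57. All treated arrays lay below every untreated array, and the treated control arrays were lowest. The fall was 2.73 ± 0.17 in control clones and 1.77 ± 0.17 in TET1-KD clones (SE, limma adjusted p = 0.000169 and 0.00143). HIST1H3D fell by 2.06 and 1.58. HIST1H3H fell by 2.48 and 1.65 at its brightest probe, while its other probe, the one with the stem-loop, gave -0.10 and -0.81 and passed in neither. The HIST1H3F and HIST1H3H probes matched at 51 of 60 bases.

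HIST3H3 encodes a testis H3. Its probe read 15.59 and 15.71 in untreated control clones and 16.39 and 16.46 after treatment, the only H3 probe to rise, by 0.78 ± 0.17 (limma adjusted p = 0.0143). Without either untreated control array or the treated CONT2 array this call was lost (0.0611 to 0.0859). In the TET1-KD clones it went from 15.53 and 15.65 to 15.29 and 15.65, and the difference in response did not pass the test (limma adjusted p = 0.0882). The probe matched that of HIST1H3C at 44 of 60 bases. The other testis histones were dim. HIST1H2AA read 4.48 to 5.63 untreated and 6.14 to 7.91 treated, with no overlap. Its changes were 1.80 in control clones (limma adjusted p = 0.0655, and 0.0141 with the clone as a block) and 1.97 in TET1-KD clones (limma adjusted p = 0.106, and 0.03 with the block). HIST1H2BA was above background on 1 array.

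The H4 class moved most evenly, with 11 probes lower in both kinds of clone. HIST1H4B (hg19 chr6:26027149-26027208) read 14.37 and 14.40 in untreated control clones and 11.75 and 11.20 after treatment. This was the largest fall of any member in control clones, 2.91 ± 0.21 (SE, n = 2, limma adjusted p = 0.000293). In the TET1-KD clones it went from 14.57 and 14.71 to 13.44 and 13.24, a fall of 1.30 ± 0.21 (limma adjusted p = 0.0132) that no longer passed without the untreated or the treated TET1-KD2 array (0.0673 and 0.0777). HIST1H4D fell by 2.81 and 1.64, and HIST1H4A by 2.58 and 1.71. A second HIST1H4A probe gave -0.68 in control clones, which did not pass the test, and fell by 1.28 in TET1-KD clones. HIST1H4E fell by 1.79 and 1.71, and HIST1H4I by 1.21 and 1.27, so that these 2 genes changed by nearly the same amount in both kinds of clone. Nearly all H4 genes encode the same protein, and the copies differed here in the size of the fall.

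H2A and H2B genes often lie head to head, with a single stretch of DNA between their starts. RefSeq gave 11 such pairs, with starts 194 to 248 bases apart, and both genes were tested in 10. Partners often differed. In the control clones the H2A gene fell and the H2B gene rose in 3 pairs, HIST1H2AJ with HIST1H2BM, HIST1H2AI with HIST1H2BL, and HIST1H2AM with HIST1H2BO. In HIST1H2AD with HIST1H2BF the H2A gene rose by 1.80 and the H2B gene fell by 1.30. No pair had both genes called in the same direction. The H2B change lay above the H2A change in 8 of 10 pairs in control clones and in 7 of 10 in TET1-KD clones. HIST1H2AJ fell by 1.33 and 1.32 in the 2 kinds of clone, while HIST1H2BM rose by 1.67 and 1.14. The pairs were read from 1 probe per gene, and the differences within pairs were not tested. The HIST1H2AD and HIST1H2AK probes, which moved in opposite directions, matched at 53 of 60 bases. The HIST1H2AJ probe matched that of HIST1H2AK, which also fell, at 51 bases, and the HIST1H2BM probe one of HIST2H2BF at 45. Part of the signal within this pair may thus come from transcripts of other genes.

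**Figure D3:**
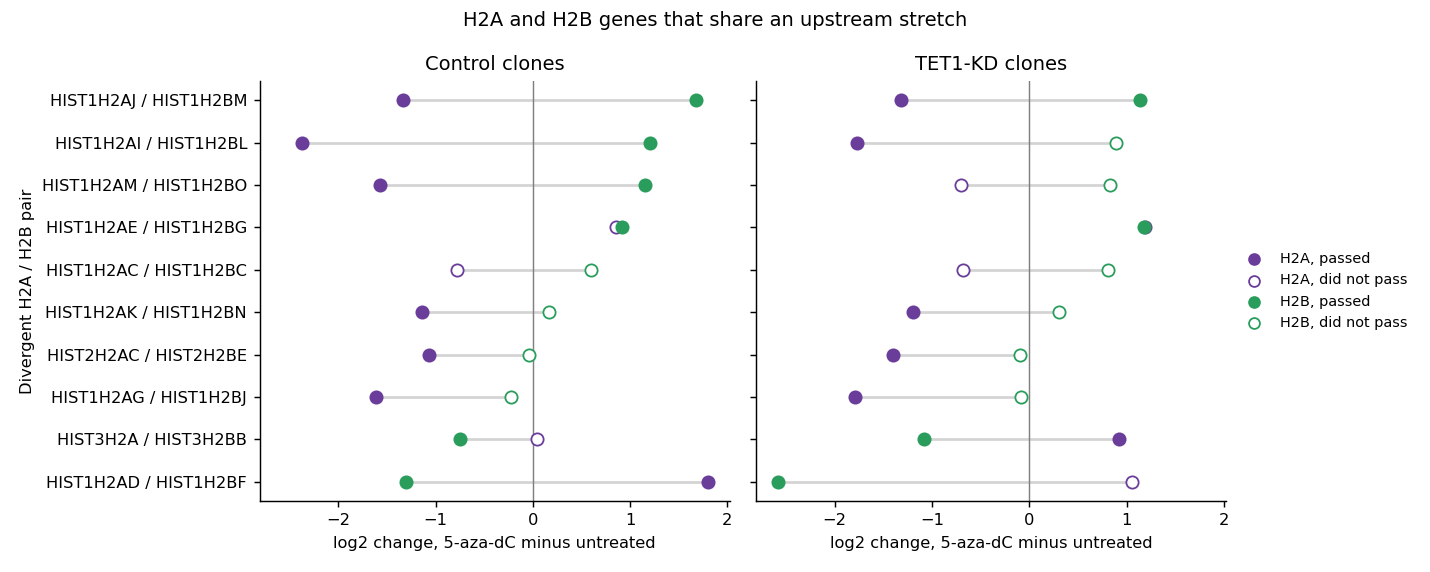
Change with 5-aza-dC (horizontal axis, log2 units) of the H2A gene (purple) and the H2B gene (green) of 10 head-to-head pairs (vertical axis), in control clones (left) and TET1-KD clones (right), filled where called and open where not. The H2B point lies to the right in 8 pairs on the left panel and 7 on the right.

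Probes of a single gene did not always move together. Of 10 genes with over 1 tested probe, 6 had probes that differed in their call in the control clones and 3 had probes of opposite sign. In HIST1H2AC, HIST1H2BK, HIST2H2BE and HIST2H2BF 1 probe lay over 1 kb downstream of another, and in each it had the more positive change in both kinds of clone. The HIST1H2AC probe 14.4 kb downstream read 7.85 and 7.59 in untreated control clones and 8.63 and 8.83 after treatment, a rise of 1.01. The 2 probes in the HIST1H2AC body gave -0.58 and -0.78. In HIST1H2BK the rise of 3.58 was that of the probe 8.25 kb downstream, and the other gave 1.18. The HIST2H2BE probe 1.04 kb downstream went from 2.20 and 2.17 to 5.95 and 5.59 in the control clones, at least 2.74-fold (limma adjusted p = 0.00286), while its other probe gave -0.04. The farthest HIST2H2BF probe went from 3.57 and 4.28 to 8.40 and 8.46 in the control clones, and the untreated CONT1 value was not above background. In the TET1-KD clones it rose at least 4.76-fold (limma adjusted p = 0.00656) from values not above background. The other tested HIST2H2BF probes gave 1.12 and -0.49 in the control clones. The files place the far HIST2H2BF probe 387 kb away, across duplicated DNA, so its distance is uncertain.

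**Figure D4:**
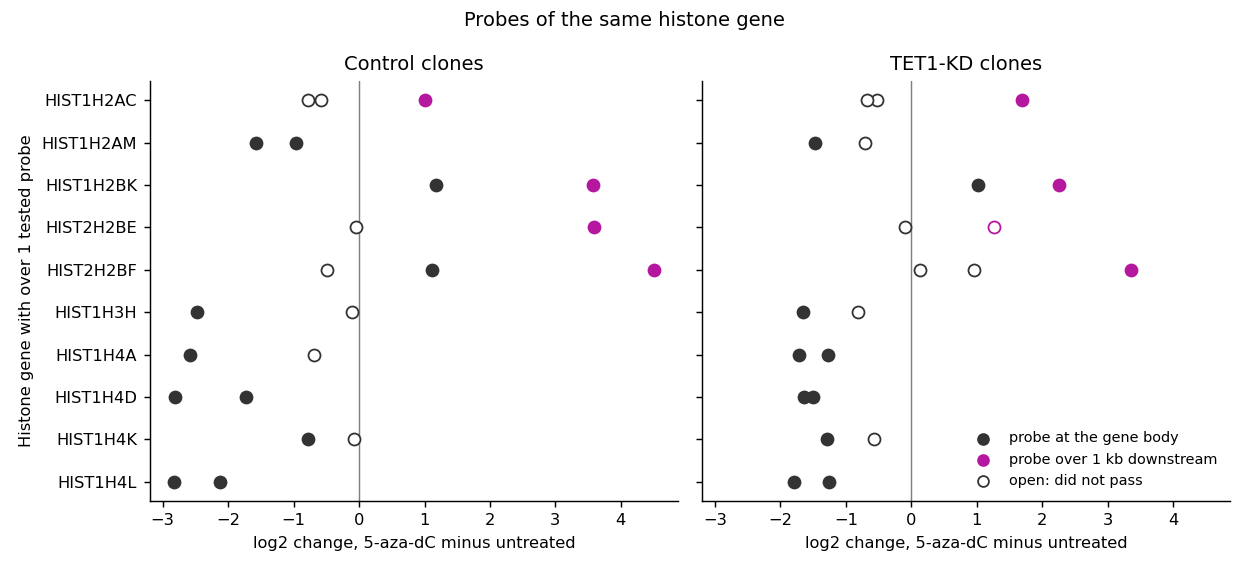
Change with 5-aza-dC (horizontal axis, log2 units) of every tested probe of the 10 genes with over 1 tested probe (vertical axis), in control clones (left) and TET1-KD clones (right). Magenta marks probes over 1 kb downstream of another probe of the gene, and filled symbols were called. The magenta probe is the rightmost of its gene in both panels.

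The difference in response, TET1-KD minus control, was called for HIST1H4B and HIST1H3A (higher, 2 of 76 or 2.63%, against 4.02% of all tested probes) and for no member in the other direction (against 1.56%). The share called higher was near the background. At an unadjusted p below 0.05 there were 12 probes higher and 4 lower. The share of all tested probes at that threshold was not taken, so no lean is read from these counts. HIST1H3A read 12.25 and 12.36 in untreated control clones and 10.78 and 10.74 after treatment, and 12.07 and 12.28, then 11.72 and 11.77, in the TET1-KD clones. The fall was 1.55 in control clones, and the change was -0.43 in TET1-KD clones. The difference was 1.11 ± 0.21 for HIST1H3A and 1.61 ± 0.30 for HIST1H4B (SE, limma adjusted p = 0.038 and 0.0383). With the clone as a block neither passed (limma adjusted p = 0.0528 and 0.0589). With any 1 of the 8 arrays left out HIST1H3A no longer passed, and HIST1H4B passed only without the treated CONT1 array (limma adjusted p = 0.0285). Over all 76 probes the difference was positive for 41 and negative for 35. The slides cannot be told apart from the treated control arrays in this comparison.

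**Figure D5:**
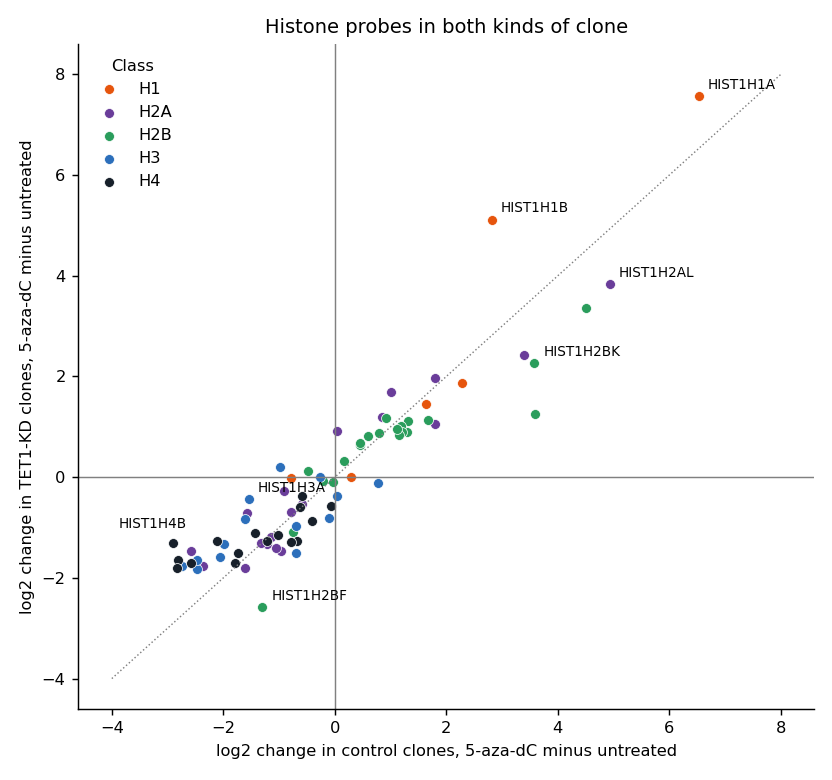
Change with 5-aza-dC of each tested histone probe in control clones (horizontal axis) and TET1-KD clones (vertical axis), in log2 units and coloured by class, with the dotted line marking equal change. The sign was the same in both kinds of clone for 72 of 76 probes, and HIST1H4B and HIST1H3A lie above the line. Shared signs were not counted over all tested probes.

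Between untreated clones, TET1-KD minus control, no histone probe was called in either direction by limma (0.00733% of all tested probes were called higher and 0.00733% lower), nor by the alternative with each probe's own variance. At an unadjusted p below 0.05, a threshold at which all tested probes were not counted, there were 1 higher and 2 lower. The smallest limma adjusted p was 0.487. TET1 itself read 9.70 and 9.75 in the untreated control clones and 8.65 in TET1-KD1 and 9.41 in TET1-KD2, both lower, but its change was not called. EPCAM, KRT8, KRT18, KRT19, CDH1 and CDX2, markers of colorectal epithelium, were above background on all 8 arrays, while VIL1 was above it on 2. The fibroblast gene COL1A2 was above it on none and the T cell gene CD3E on 1. PECAM1 was above it on 3 arrays, VWF on 7, and COL1A1 and PTPRC on 8, so not every marker of another cell type was at background.

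Genes that work with the histones were read from fixed lists, 1 probe each. Of 20 S phase genes none rose and 7 fell in the control clones, and none rose and 6 fell in the TET1-KD clones, with medians of -0.47 and -0.61. The falls were 35% and 30% of the list, against 22.6% and 2.9% of all tested probes. MCM2, a subunit of the replicative helicase, fell by 0.77 and 0.76. E2F1, a transcription factor of the G1/S transition, fell by 0.55 and 0.79. These lie beside the falls of H3 and H4, and their part in those falls was not tested. Of 14 genes of histone transcription and 3′ end processing, 2 rose and 4 fell in control clones and none was called in TET1-KD clones, where the median was -0.41. The control shares, 14.3% and 28.6%, were near those of all tested probes (19.2% and 22.6%). At an unadjusted p below 0.05, 5 of the 14 were lower and none higher in the TET1-KD clones, with no count over all tested probes beside it. SLBP, which binds the stem-loop, gave -0.43 and -0.39 (limma adjusted p = 0.0699 and 0.167), and NPAT, an activator of histone genes, gave -0.25 and -0.47. Of 12 histone chaperones 1 rose and 6 fell in control clones and 1 fell in TET1-KD clones. In control clones 8.33% of the list rose and 50% fell, against 19.2% and 22.6% of all tested probes. In TET1-KD clones 8.33% fell, against 2.9%. CHAF1A, a subunit of the CAF-1 complex, fell by 0.73 and 0.70. NASP, a chaperone of H3 and H4, rose by 1.05 in control clones and gave -0.40 in TET1-KD clones.

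Of 7 inhibitors of the cell cycle 2 rose and 2 fell in control clones, and 1 rose in TET1-KD clones. The control shares were 28.6% each way, against 19.2% and 22.6% of all tested probes. The TET1-KD share was 14.3%, against 8.91%. With only 7 genes, these lie near the shares of all tested probes. CDKN2D (p19) rose by 2.07 and 1.63, and CDKN1A (p21) fell by 1.41 in control clones and gave 0.51 in TET1-KD clones. Of 18 histone genes outside the clusters 15 were tested, and 5 rose and 2 fell in control clones while 3 rose and 1 fell in TET1-KD clones. These were 33.3% and 13.3% in control clones, against 19.2% and 22.6% of all tested probes. In TET1-KD clones they were 20% and 6.67%, against 8.91% and 2.9%. The germline variants had the largest changes. H2BFWT read 2.12 to 2.55 on untreated arrays and 6.25 to 9.52 on treated ones, at least 18.4-fold in control and at least 11.2-fold in TET1-KD clones. H2AFB3 rose by 7.25 and 5.72. The replacement histone genes H3F3A and H3F3B, which are expressed outside S phase, gave -0.10 and 0.21 in control clones and did not pass the test.

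Other genes lie among the histone genes. Between the outermost HIST1 probes (hg19 chr6:25726563-27861647) lay 45 other tested probes, of which 9 rose and 18 fell in control clones and 5 rose and 5 fell in TET1-KD clones, with medians of -0.31 and -0.08. The shares were 20% and 40% in control clones, against 19.2% and 22.6% of all tested probes, and 11.1% each way in TET1-KD clones, against 8.91% and 2.9%. Of the 61 tested HIST1 histone probes 16 rose and 31 fell in control clones (26.2% and 50.8%). In TET1-KD clones 9 of them rose and 27 fell (14.8% and 44.3%). Of 11 tested HIST2 probes 4 rose and 1 fell in control clones (36.4% and 9.09%), and 2 rose and 3 fell in TET1-KD clones (18.2% and 27.3%). The control share that fell was below the 22.6% of all tested probes, and 11 probes are few. Between the outermost HIST2 probes (hg19 chr1:120904981-149859244) lay 124 other tested probes. Of these 32 rose and 25 fell in control clones (25.8% and 20.2%), and 15 rose (12.1%) and none fell in TET1-KD clones. The low end of this span is the HIST2H3D probe, which the files place far from the other HIST2 probes. Many of the 124 probes therefore need not lie among the histone genes.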

How the data were processed

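Total RNA was labeled with Cy3 in a one-color kit primed on poly(A) and hybridized to 8 Agilent arrays. The authors extracted intensity values with Agilent Feature Extraction (10.7 in the submitters' processing notes, 10.7.3.1 in the scanner files), and the deposited processed signals are background-subtracted intensity values on a linear scale. Here each array was divided by its 75th percentile over non-control spots (395.51 to 623.683) and set back to a common scale, values below 1 were set to 1, and log2 was taken. Spots marked non-uniform, population outlier or manual were left out (229 to 329 per array), no spot was saturated, and 29490 to 34276 of 58717 spots were above background per array. A probe was tested if above background on both arrays of a condition. limma (3.58.1, R 4.3.3) was fitted to all 8 arrays with 4 conditions, and p-values were Benjamini-Hochberg adjusted over 27287 probes. With 2 clones per condition, p-values rest on the spread between clones within conditions. limma pooled this spread over the 4 conditions and moderated it toward that of all tested probes. A probe thus has the same SE in both kinds of clone, also where the clones of 1 kind varied more. The small number of arrays limits the precision.

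The clone numbers pair treated and untreated arrays of the same clone, and deviations within a clone correlated at 0.198 in control and 0.476 in TET1-KD clones over all tested probes. The clone as a replicate block was an alternative fit, as the methods name no block. The members and gene lists were chosen with earlier results of these data known. Named genes were given 1 probe each, the brightest tested one. They were all H1 genes, the 3 with the smallest p-values per other class and kind of clone, the 3 largest rises and falls in control clones, those called in the difference, and the testis histones. Genes outside this rule were named after their values were seen. Stem-loops, motifs and shared bases were counted by exact search, probe pairs with shifts of up to 20 bases. The fit was tested on simulated data. Current symbols matched for all 70 genes. Protein sequences were not used here.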

Additional observations from a re-analysis of the deposited data

Results flagged for a closer look

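The response to 5-aza-dC differed between TET1-KD and control clones for HIST1H4B, by 1.61 on the log2 scale, and for HIST1H3A, by 1.11, in the test of the difference itself (limma adjusted p = 0.0383 and 0.038). Both genes fell less in both TET1-KD clones than in both control clones. The treated control arrays were on a slide of their own, which cannot be told apart from their condition, and over the alternatives the adjusted p ranged from 0.0152 to 0.14 for HIST1H4B and from 0.015 to 0.152 for HIST1H3A.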

How the results depend on the processing

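The counts of histone probes called and the median responses were compared with the main fit under every alternative except leaving out 1 array. These include fits on the 4 arrays of a comparison and on the first slide alone. In them 108 values stayed within 1.5 times the main count or within the spread between clones, and 20 did not. No named gene that was called changed direction under any alternative run. The number of rises in the TET1-KD clones was 5 with probes above background on all 8 arrays, 4 with the 4 arrays of the comparison alone and 7 on the first slide, and the falls were 19 with those 4 arrays. The t-test of the study's methods gave 10 rises and 12 falls in control clones, and 0 and 0 in TET1-KD clones. The difference in response gave 0 higher without the filter, 0 with the replicate block, 0 with the GC trend removed and 0 with both; it gave 2 lower with the GC trend removed, and 4 higher and 1 lower with a variance prior that follows the signal. The replicate block, pairing each clone's arrays, gave 20 rises and 37 falls in control and 10 and 32 in TET1-KD clones. Its changes of call among named genes in the responses and the difference are given beside them. The median response in TET1-KD clones was -0.30 after normexp, -0.25 after quantile normalization, -0.22 with the offset of 50 and -0.61 with the GC trend removed, and that in control clones -0.11 with the GC trend removed. With 1 array left out, rises ranged from 8 to 24 and falls from 23 to 36 in control clones, and from 4 to 23 and 15 to 29 in TET1-KD clones. The difference gave 0 to 1 in either direction. Median responses ranged from -0.45 to -0.25 and from -0.37 to -0.35, and the untreated comparison gave 0 throughout. Using 1 probe per gene, a choice made after seeing the data, gave 17 rises and 30 falls in control and 9 and 27 in TET1-KD clones. A lone array left in a condition is assumed to vary like the others. The cause of these shifts was not tested. Calls over all tested probes were not counted under the alternatives, so these counts have no background share beside them. Removing the GC trend left 13 H2B rises and 11 H4 falls in control clones, and 4 and 16 in TET1-KD clones.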
